A study of Mus musculus with 13 samples.

Results

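Maternal starvation and ovariectomy (OVX, removal of the ovaries) are both ways of holding the mouse blastocyst in diapause, and their transcriptomes at embryonic day 5.5 were set against each other across all genes. The comparison took 4 of the 13 libraries of the series by their labelled treatment, 2 of starvation and 2 of OVX. Both groups were wild-type whole blastocysts on the B6D2F1 background, which mixes C57BL/6 and DBA2J. Values are also shown for 2 other groups: blastocysts from ovariectomised mothers in which Nprl2 and Tsc2 were targeted with guide RNAs (targeted OVX, day 5.5, n = 2), and blastocysts of normally fed mothers at day 4.5 (E4.5, n = 2). RNA was amplified with a kit for ultra-low input. The labels give neither the length of the starvation, nor any hormone given after ovariectomy, nor the number or sex of the embryos in a library. They also do not say whether the replicates came from separate mothers. Each p-value thus reflects no more than the spread among the libraries fitted, which may be technical. That spread was estimated from all 13 libraries, including blastocysts in KSOM culture medium with depleted or reduced nutrients, of which no values are shown.

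Embryonic diapause is a reversible arrest in which the blastocyst stays unattached in the uterus, with slowed growth and metabolism. In mice it is set off by suckling or, experimentally, by removal of the ovaries before the oestrogen surge that makes the uterus receptive, and low activity of the growth kinase complex mTORC1 is a known feature of the arrest. The blastocyst is made of trophectoderm, the outer layer that attaches to the uterus, and of an inner cell mass that gives epiblast and primitive endoderm.

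The starvation libraries held 64033400 and 71353685 counts and the OVX libraries 45577434 and 70703883. Mitochondrially encoded transcripts took 5.10% and 7.40% of counts in starvation, against 2.29% and 2.57% in OVX. All 4 libraries held the transcripts of a blastocyst, with the trophectoderm keratin Krt18 at 7728 and 2893 CPM (counts scaled to a common library size by trimmed means) in starvation and 5342 and 6488 CPM in OVX. The pluripotency factor Pou5f1 was at 40.8 and 31.3 CPM in starvation and 9.48 and 12.97 CPM in OVX.

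OVX replicate 1 stood apart by transcripts of other cell types. The summed level of 25 skeletal muscle genes was 555 and 204 CPM of the library total in starvation, against 1712 and 239 CPM in OVX. For 16 neutrophil genes it was 37.8 and 154 CPM in starvation and 704 and 199 CPM in OVX, and for 16 macrophage and lymphocyte genes 18.5 and 20.01 CPM in starvation and 611 and 18.2 CPM in OVX. The 8 erythroid genes summed to 0.109 and 9.49 CPM in starvation and 83.8 and 8.03 CPM in OVX. In both starvation libraries 10 of 25 muscle, 6 of 16 neutrophil and 6 of 15 macrophage and lymphocyte genes tested had no count, among them Myh4, Acta1, Retnlg, C1qb and C1qc. These named genes were also at or near 0 in OVX replicate 2, with 16, 16, 0, 4 and 18 counts in that order. In OVX replicate 1 they had 15833, 5932, 2286, 5295 and 3061 counts. Starvation replicate 2 stood apart in turn by genes of the female tract. The summed level of uterine stroma and smooth muscle genes was 23.4 and 46.1 CPM in starvation, 24.8 and 8.66 CPM in OVX and 26.3 and 19.4 CPM in E4.5, and that of uterine epithelium genes was 222 and 465 CPM in starvation, 117.5 and 456 CPM in OVX and 47.9 and 87.6 CPM in E4.5. Ovgp1, the oviduct glycoprotein, had 0.835 and 14.3 CPM in starvation and 0 and 0 CPM in OVX. Dcn, a proteoglycan of connective tissue, had 0 and 25.2 CPM in starvation and 1.77 and 0.0495 CPM in OVX. Starvation replicate 2 also had the strongest relation of level to transcript length, with a rank correlation across genes of −0.02 and 0.221 in starvation and −0.113 and −0.029 in OVX for levels relative to the mean of the 4 libraries. The part of these differences in the results was not tested, and values without single libraries are given below where they move a result.

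The sex of the embryos also differed between the libraries. The Y-linked translation factor gene Eif2s3y was at 0 and 0.126 CPM in starvation, 29.6 and 4.55 CPM in OVX, and 0.0797 and 43.3 CPM in E4.5. Ddx3y, a Y-linked RNA helicase gene, was at 0 and 0.0919 CPM in starvation, 13.7 and 1.78 CPM in OVX, and 0.159 and 35.8 CPM in E4.5. Xist, the noncoding RNA expressed from the inactive X chromosome, was at 190.3 and 128 CPM in starvation, 133 and 178 CPM in OVX, and 179 and 5.75 CPM in E4.5. Both starvation libraries thus held Xist with Y-linked transcripts at or near 0, and both OVX libraries held Xist together with Y-linked transcripts. The 786 X-linked genes tested had a median log2 fold change (starvation over OVX) of −0.11, against 0.00 for 20969 autosomal genes. Sex and treatment cannot be told apart in this comparison, and its part in single genes was not tested.

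**Figure D1:**
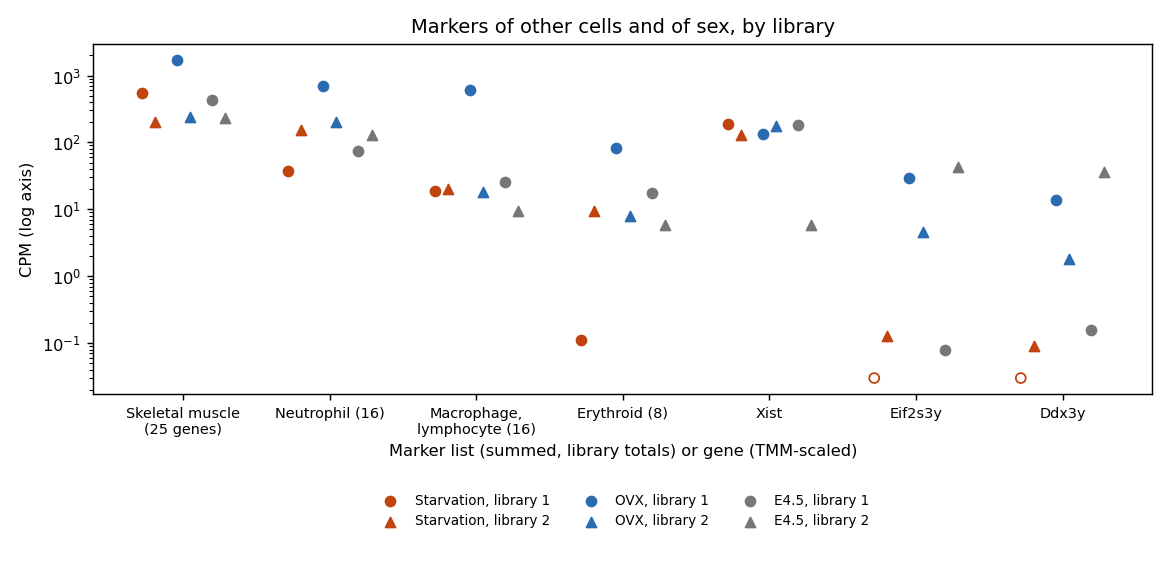
Levels by library of marker lists for 4 other cell types (summed CPM of the library total) and of 3 genes that differ by sex (CPM, scaled by trimmed means), on a log axis. Circles are replicate 1 and triangles replicate 2. Open symbols stand for values below the lowest level drawn (0.03 CPM). OVX replicate 1 had the highest level of all 4 marker lists, and both starvation libraries lay at or under 0.126 CPM for Eif2s3y and Ddx3y.

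Replicates of 1 treatment differed about as much as libraries of different treatments. Over 9111 genes of at least 5 mean CPM, the median absolute log2 difference was 0.74 between the starvation libraries and 0.63 between the OVX libraries. Across treatments it was 0.80 and 0.66 for starvation replicate 1 against OVX replicates 1 and 2, and 0.97 and 0.74 for starvation replicate 2 against the same pair.

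The direct comparison asked where the transcriptome of starvation departs from that of the hormonal arrest. Of 21808 genes tested, 49 (0.225%) were called by the edgeR quasi-likelihood test at a Benjamini-Hochberg adjusted p under 0.05, 17 higher in starvation (0.078%) and 32 lower (0.147%). Without an adjustment, 1450 genes were higher and 1812 lower at p under 0.05. In all 49 called genes both starvation libraries lay on the same side of both OVX libraries, which was also so for 34.2% of all genes tested. The common coefficient of variation between replicates was 0.896, and called genes with counts in starvation differed by at least 2.89-fold. With only library totals as scaling 28 genes were called, 22 of them higher, and with limma on the deposited FPKM 211, of which 164 were higher. With genes of at least 5 mean CPM alone 132 of 272 calls were higher. Without OVX replicate 1 none of the 17 higher calls and 18 of the 32 lower ones passed the threshold. A fit of the 4 libraries alone called 0 genes by edgeR, with 1466 at an unadjusted p under 0.05. DESeq2 with all 13 libraries called 1650 genes.

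The genes raised in starvation included an RNA-binding stress protein, a retroelement silencer, mitochondrial and cytosolic aldehyde dehydrogenases and an activator of pyruvate oxidation. Resf1 (ENSMUSG00000032712, GRCm38 chr6:149309414-149335663), which takes part in silencing endogenous retroviruses in mouse embryonic stem cells, had 108 and 186 CPM in starvation, against 8.63 and 7.45 CPM in OVX and 8.46 and 11.01 CPM in E4.5. The targeted OVX libraries held 7.76 and 43.9 CPM. The lowest starvation library lay above all of these, and the log2 fold change was 4.19 ± 0.70 (SE; adjusted p = 0.039). Cirbp (ENSMUSG00000045193, chr10:80165985-80171655), the cold-inducible RNA-binding protein, had 109 and 65.8 CPM in starvation, 6.50 and 10.4 CPM in OVX and 7.19 and 5.29 CPM in E4.5. It was 10.3-fold higher in starvation (log2 3.37 ± 0.51, adjusted p = 0.028). For both genes OVX lay at the level of E4.5. Without OVX replicate 1 the log2 fold changes were 4.30 (adjusted p = 0.117) for Resf1 and 3.07 (adjusted p = 0.115) for Cirbp.

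Several of the raised genes act in metabolism. Aldh2, the mitochondrial enzyme that clears acetaldehyde, had 74.0 and 111 CPM in starvation, 15 and 13.3 CPM in OVX and 33.9 and 27.04 CPM in E4.5 (log2 2.71 ± 0.37, adjusted p = 0.020). Aldh1l1, which oxidises 10-formyltetrahydrofolate in the folate cycle, had 48.8 and 35.6 CPM in starvation, 7.29 and 6.84 CPM in OVX and 36.7 and 23.8 CPM in E4.5 (2.58 ± 0.44, adjusted p = 0.039). E4.5 lay between the treatments for Aldh2 and nearer to starvation for Aldh1l1. Gk, the X-linked glycerol kinase gene that brings glycerol into glycolysis and lipid synthesis, had 25.2 and 32.0 CPM in starvation and 4.28 and 5.06 CPM in OVX (2.61 ± 0.38, adjusted p = 0.027). Plpp3, a phosphatase of lipid phosphates, had 92.6 and 69.9 CPM in starvation and 21.5 and 19.5 CPM in OVX (1.99 ± 0.33, adjusted p = 0.039). Cnnm4, a transporter for magnesium, had 35.2 and 31.4 CPM in starvation and 4.80 and 3.96 CPM in OVX (2.93 ± 0.46, adjusted p = 0.036). In each of these the starvation libraries lay above every OVX library, and Gk was at 3.65 and 4.26 CPM in E4.5.

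Among regulators, Tcf15, a basic helix-loop-helix factor linked in mouse embryonic stem cells to leaving the naive state, had 149 and 109 CPM in starvation, 23.0 and 23.2 CPM in OVX and 32.8 and 29.2 CPM in E4.5 (2.48 ± 0.34, adjusted p = 0.020). Perp, a p53 target gene of desmosomes, had 197 and 191 CPM in starvation, 26.7 and 33.9 CPM in OVX and 126 and 89.9 CPM in E4.5 (2.68 ± 0.35, adjusted p = 0.020). Tcf15 in OVX thus lay near E4.5, while Perp in OVX lay below it. Nfyc, a subunit of the CCAAT-binding factor NF-Y, had 90.3 and 161 CPM in starvation and 30.4 and 37.8 CPM in OVX (1.88 ± 0.33, adjusted p = 0.045). Optn, a receptor for selective autophagy, had 78.3 and 104 CPM in starvation and 22.4 and 19.7 CPM in OVX (2.11 ± 0.35, adjusted p = 0.039). Gsdme, a pore-forming gasdermin, had 80.5 and 51.8 CPM in starvation, 11.9 and 15.3 CPM in OVX and 5.63 and 7.01 CPM in E4.5, so that both treatments lay above E4.5. The other raised genes were the endosomal protein gene Plekhf2, the endoplasmic reticulum fusion gene Atl2, Rassf8 and the myosin phosphatase subunit gene Ppp1r12a, with log2 fold changes of 1.998, 2.39, 2.19 and 1.84.

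**Figure D2:**
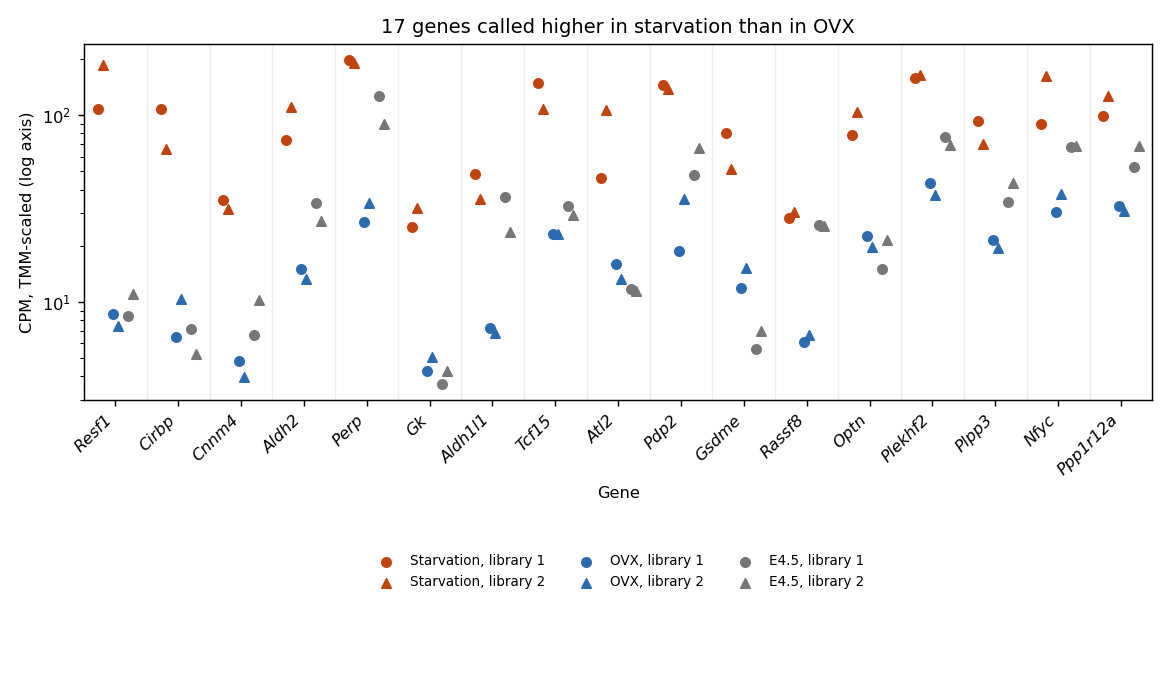
Levels by library (CPM, scaled by trimmed means, log axis) of the 17 genes called higher in starvation than in OVX, with E4.5 for context. Circles are replicate 1 and triangles replicate 2. Both starvation points lie above both OVX points in every gene, and for Resf1, Cirbp and Gk the OVX and E4.5 points lie at the same height.

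The genes called lower in starvation included a few genes of trophectoderm and placenta, of lysosomes and of immune cells, lactate dehydrogenase and an integrin. Of the lists described below, 2 of 35 trophectoderm and 1 of 49 lysosomal genes were called lower, and the list medians were 0.14 and 0.32. Tmem37 (ENSMUSG00000050777, chr1:120067377-120074074), which encodes a calcium channel subunit-like membrane protein, had 15.3 and 14.6 CPM in starvation, 222 and 201 CPM in OVX and 10.8 and 9.37 CPM in E4.5. The targeted OVX libraries held 102 and 346 CPM. Starvation lay at the E4.5 level, and Tmem37 fell by 3.83 ± 0.50 on the log2 scale relative to OVX (adjusted p = 0.020). This call was kept without each of the 4 libraries in turn. So were those of 10 other genes, namely 2210016L21Rik, Cklf, Ctsz, Fbxo27, H2-D1, Itgav, Ldha, Mogat2, Plac1 and Tfec, which makes 11 of the 49.

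Plac1 (ENSMUSG00000061082, chrX:53069995-53240111), an X-linked membrane protein gene of trophoblast, had 144 and 87.0 CPM in starvation, 653 and 664 CPM in OVX, 717 and 654 CPM in targeted OVX, and 51.2 and 94.9 CPM in E4.5 (log2 −2.51 ± 0.37, adjusted p = 0.027). Tinagl1, a secreted matricellular protein gene of the embryo surface layers, had 49.2 and 43.9 CPM in starvation, 158 and 434 CPM in OVX and 46.8 and 53.5 CPM in E4.5 (−2.67 ± 0.48, adjusted p = 0.049). In both, the starvation libraries overlapped or bordered the E4.5 range while the OVX libraries lay above it. Whether cells of a type were fewer or held less of an RNA cannot be told apart in whole blastocysts. Itgav, the integrin alpha V subunit that binds matrix proteins during implantation, had 1.83 and 2.87 CPM in starvation, 14.97 and 22.3 CPM in OVX and 14.0 and 8.72 CPM in E4.5, so that here starvation was the group apart (−2.99 ± 0.44, adjusted p = 0.027). Crym, a thyroid hormone-binding protein gene, had 2.94 and 7.49 CPM in starvation and 35.3 and 211 CPM in OVX, but 0.913 and 1.13 CPM in targeted OVX and 6.31 and 4.38 CPM in E4.5 (−4.56 ± 0.77, adjusted p = 0.039).

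Of lysosomal and membrane transport genes, Ctsz, the lysosomal carboxypeptidase cathepsin Z, had 16.01 and 30.8 CPM in starvation, 138 and 227 CPM in OVX and 45.4 and 19.5 CPM in E4.5 (−2.96 ± 0.48, adjusted p = 0.038). Dnase2a, the acid DNase of lysosomes, had 15.1 and 15.2 CPM in starvation and 62.5 and 44.6 CPM in OVX (−1.82 ± 0.32, adjusted p = 0.045). Atp6v0a4, a membrane subunit of the proton pump V-ATPase, had 45.05 and 26.7 CPM in starvation and 262 and 136 CPM in OVX (−2.47 ± 0.38, adjusted p = 0.032). The starvation levels of all 3 were within or below the E4.5 range or within 2-fold of it. The nucleoside transporter gene Slc28a3 had 70.1 and 75.3 CPM in starvation and 208 and 212 CPM in OVX (−1.53 ± 0.27, adjusted p = 0.047). Slc51b, part of a bile acid and steroid exporter, had 0 and 4 counts in starvation against 754 and 529 counts in OVX. Counting was not stated to use strand, and Ctsz overlaps Nelfcd, Atp6v0a4 overlaps Tmem213, Gsdme overlaps Mpp6 and Glipr1 overlaps Krr1 on the other strand, while Mrps6 overlaps Slc5a3, so reads of these pairs may be shared. None of those 5 neighbours was called.

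Of the other lowered genes, Dmkn, a secreted epidermal protein gene, had 11.1 and 9.26 CPM in starvation, 2420 and 116 CPM in OVX, 611 and 681 CPM in targeted OVX, and 72.9 and 52.2 CPM in E4.5. Its log2 fold change was −6.96 ± 1.18 (adjusted p = 0.039) and −3.51 (adjusted p = 0.041) without OVX replicate 1. S100a8, a calcium-binding protein gene abundant in neutrophils, had 0 and 1.31 CPM in starvation and 355 and 83.0 CPM in OVX, with 0.159 and 0.0579 CPM in E4.5. Lilrb4a, an inhibitory receptor gene of myeloid cells, and Slfn2, a gene of lymphocytes and monocytes, had 0 counts in both starvation libraries, and in OVX 329 and 33 counts (Lilrb4a) and 187 and 36 counts (Slfn2). Against a floor of 3 counts per library they were at least 145-fold and 85.2-fold lower in starvation, and at least 10.6-fold and 11.6-fold lower without OVX replicate 1. S100a8, Lilrb4a and Slfn2 were all highest in OVX replicate 1, the library with the highest macrophage and neutrophil marker sums, and none of the 3 calls passed without that library. S100a6, a further member of the S100 family, had 13.2 and 6.79 CPM in starvation and 57.4 and 144 CPM in OVX. H2-D1, a class I histocompatibility gene, had 33.5 and 23.3 CPM in starvation, 165 and 181 CPM in OVX and 51.6 and 48.2 CPM in E4.5 (−2.61 ± 0.41, adjusted p = 0.036). It belongs to a family of near-identical genes on a mixed strain background, so its level is uncertain, and its relative H2-K1 had 33.5 and 5.10 CPM in starvation and 31.9 and 12.5 CPM in OVX.

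Further genes were without counts in starvation or nearly so. Mogat2, which joins monoacylglycerol with an acyl chain, had 0 and 0 counts in starvation against 77 and 130 in OVX, and was at least 53.6-fold lower. It was at 12.9 and 5.52 CPM in E4.5 and at 8.90 and 8.46 CPM in targeted OVX, so that both starvation libraries stood alone. Tfec, a transcription factor gene of the family of Mitf and Tfeb, had 0 and 0 counts in starvation and 77 and 557 in OVX, and was at least 122-fold lower, or 65.4-fold without OVX replicate 2. Fbxo27, a ubiquitin ligase subunit gene, had 11 and 4 counts in starvation and 356 and 3023 in OVX. The remaining lowered genes were Cklf, Nudt14, Mrps6, Lsm10, Faap20, Kif1c, Cryzl1, Glipr1, Prr13, Bex4, 2210016L21Rik and Gm12169, with log2 fold changes from −3.26 (Kif1c) to −1.89 (Glipr1). Glipr1 was high in both treatments, at 152 and 127 CPM in starvation and 399 and 639 CPM in OVX, with 16.5 and 17.9 CPM in E4.5.

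**Figure D3:**
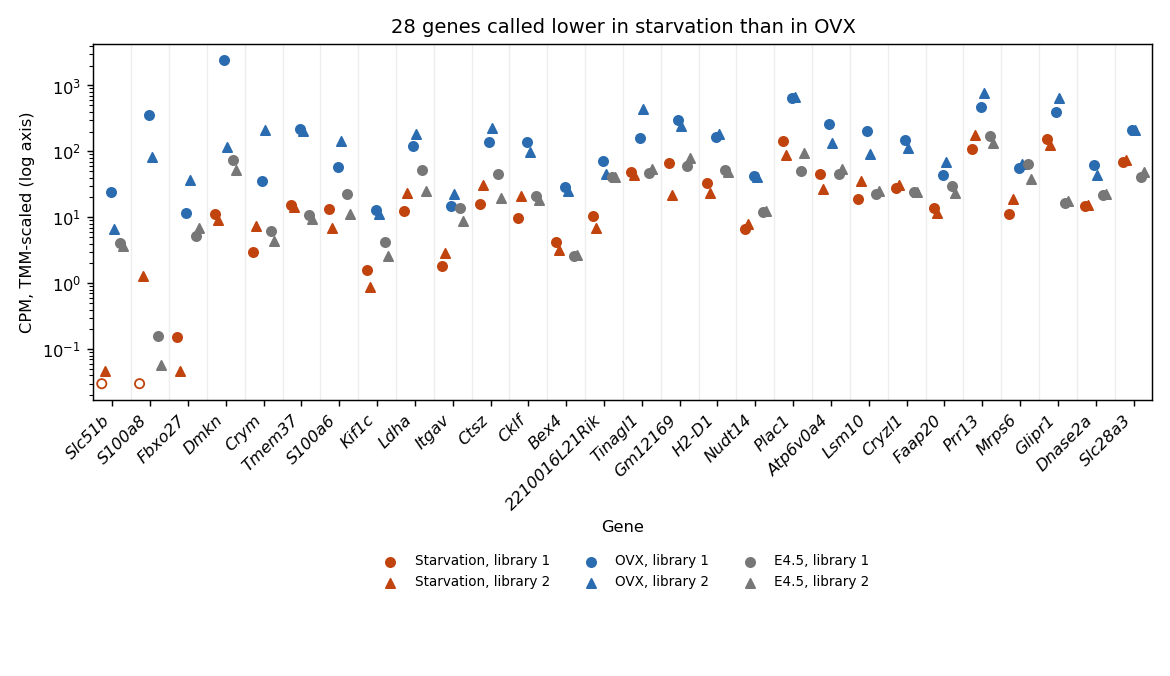
Levels by library (CPM, scaled by trimmed means, log axis) of the 28 genes called lower in starvation than in OVX that had a count in at least 1 starvation library, with E4.5 for context. Circles are replicate 1, triangles replicate 2, and open symbols values below the lowest level drawn (0.03 CPM). Both starvation points lie below both OVX points in every gene. For Tmem37, Cklf, Bex4 and Plac1 the E4.5 points lie at or near the starvation points, and for Itgav and Mrps6 near the OVX points.

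Set beside E4.5, the called genes fell into groups that were sorted by mean CPM after the values had been seen. The same sorting was not made over all genes tested, so no background share stands beside the counts that follow. Of the 17 genes higher in starvation, 9 had an OVX mean within 2-fold of E4.5 and a starvation mean outside it, and 3 (Perp, Aldh1l1 and Rassf8) had a starvation mean within 2-fold of E4.5 and an OVX mean outside it. Of the 32 lower genes, 17 had a starvation mean within 2-fold of E4.5 and an OVX mean outside it, and 3 (Itgav, Mrps6 and 2210016L21Rik) the reverse. In 2 higher and 9 lower genes E4.5 lay between the treatments, more than 2-fold from each. Among these, Tfec, Slfn2 and Lilrb4a had 0 counts in starvation, from which any level counted as more than 2-fold away. For Lilrb4a the E4.5 mean was itself near 0, at 0.0755 CPM. In the remaining 6 genes E4.5 lay between the treatments and within 2-fold of both (Nfyc, Ppp1r12a), or beyond both. Its mean was the lowest for Gsdme, Glipr1 and S100a8 and the highest for Mogat2. For S100a8 this rests on starvation replicate 2 (1.31 CPM), since starvation replicate 1, at 0 CPM, lay below E4.5.

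The fate of pyruvate was touched by a called gene on either side. Ldha (ENSMUSG00000063229, chr7:46841475-46855627), which turns pyruvate into lactate, had 12.3 and 23.8 CPM in starvation, 120.1 and 184 CPM in OVX, 92.2 and 64.8 CPM in targeted OVX and 52.3 and 25.2 CPM in E4.5. It was 8.41-fold lower in starvation (log2 −3.07 ± 0.45, adjusted p = 0.027). Pdp2 (ENSMUSG00000048371, chr8:104591451-104599026), the phosphatase that switches pyruvate dehydrogenase on, had 145 and 138 CPM in starvation, 18.7 and 35.6 CPM in OVX, 24.1 and 37.0 CPM in targeted OVX and 47.8 and 67.1 CPM in E4.5. It was 5.21-fold higher in starvation (2.38 ± 0.39, adjusted p = 0.039), with a log2 fold change of 1.99 (adjusted p = 0.151) without OVX replicate 1. The promoters of this pair are shown because both hold CACGTG, the E-box read by the MYC and TFE families of factors, which is in capitals. Each is the 250 bases upstream of a RefSeq transcription start on the plus strand of GRCm38.p6, at chr7:46845554-46845803 for Ldha and chr8:104591222-104591471 for Pdp2.
Ldha: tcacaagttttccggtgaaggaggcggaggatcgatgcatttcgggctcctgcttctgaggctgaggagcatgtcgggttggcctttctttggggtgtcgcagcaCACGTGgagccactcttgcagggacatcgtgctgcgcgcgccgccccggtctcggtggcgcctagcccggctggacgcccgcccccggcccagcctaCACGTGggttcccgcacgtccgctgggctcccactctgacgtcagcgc
Pdp2: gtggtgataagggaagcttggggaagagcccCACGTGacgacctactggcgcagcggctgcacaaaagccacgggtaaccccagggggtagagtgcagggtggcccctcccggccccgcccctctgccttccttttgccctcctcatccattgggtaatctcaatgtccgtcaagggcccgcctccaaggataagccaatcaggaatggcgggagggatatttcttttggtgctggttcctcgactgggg
In Ldha the matches began 145 and 48 bases before the start and in Pdp2 219 bases before it. CACGTG, which reads the same on both strands, was in 2 of 12 higher and 2 of 25 lower called genes with a RefSeq promoter, or 16.7% and 8%, against 9.21% of the promoters of 13340 genes tested. The other holders were Gk, at 58 bases, and Bex4, at 9 bases before the start. CCAAT on either strand was in 50% of higher, 36% of lower and 40.2% of all promoters. Ldha has a second RefSeq start, whose promoter holds no CACGTG. The bases that follow the start printed for Ldha were not found in a GENCODE M21 transcript of the gene, while those that follow its second start and that of Pdp2 were. A match describes the sequence only.

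Most other genes of central metabolism were not called. Among 36 genes of the tricarboxylic acid cycle and pyruvate entry, Pdp2 was the only call, and the median log2 fold change was 0.54, against 0.00 for all genes tested, with quartiles of −1.02 and 0.91. It was 0.07 without starvation replicate 1 and 0.28 without OVX replicate 1. Of 23 genes of glycolysis and lactate, 1 (Ldha) was lower and the median was −0.23. The glucose transporter gene Slc2a1 had 90.2 and 62.3 CPM in starvation and 5.52 and 18.03 CPM in OVX, without overlap (2.69 ± 0.52, adjusted p = 0.057). The glycolytic enzyme gene Eno1 had 244 and 90.5 CPM in starvation and 383 and 427 CPM in OVX (−1.28 ± 0.45, adjusted p = 0.21). The glycolysis median was 0.11 with only library totals as scaling and −0.77 without starvation replicate 1. The 29 genes of fatty acid oxidation, the 27 of sterol synthesis and the 28 of fatty acid synthesis and lipid storage held no call, with medians of 0.01, 0.25 and 0.13 that ran from −0.34 to 0.34, from 0.00 to 1.04 and from −0.08 to 0.54 over the other settings.

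Nuclear and mitochondrial genes of the respiratory chain stood on opposite sides of 0. The median log2 fold change was 0.85 over 13 mitochondrially encoded mRNAs, 12 of them positive, −1.14 over 36 nuclear genes of complex I, 2 of them positive, and −1.34 over 35 genes of complexes III to V, 5 of them positive. None of these genes was called. The mitochondrial mRNA mt-Co2 had 3344 and 4189 CPM in starvation and 1646 and 1695 CPM in OVX (1.17 ± 0.32, adjusted p = 0.13). Cycs, the electron carrier cytochrome c, had 532 and 594 CPM in starvation and 6651 and 1359 CPM in OVX (−2.83 ± 0.60, adjusted p = 0.067). OVX replicate 1 was the high library here and in most of the nuclear respiratory genes. Without it the medians were −0.02 for complex I and −0.09 for complexes III to V, and −0.73 and −0.89 with length and GC offsets. The mitochondrial median was 0.41 without starvation replicate 2. Summed complex I genes took 17770 and 11840 CPM of the library total in starvation and 30520 and 15760 CPM in OVX. They took 29610 and 26290 CPM in targeted OVX and 16080 and 13420 CPM in E4.5. For complexes III to V the sums were 41130 and 27550 CPM in starvation and 73240 and 34630 CPM in OVX. In targeted OVX these were 68010 and 59570 CPM, and in E4.5 36260 and 30840 CPM.

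Ribosomal protein genes also had negative medians. Summed cytosolic ones took 55240 and 40680 CPM of the library total in starvation and 88970 and 61890 CPM in OVX. In E4.5 they took 107900 and 92830 CPM, more than in either treatment. Of the 79 cytosolic genes, 43 lay lower and 1 higher in starvation without overlap, which was so for 34.2% of all genes tested. Of 79 cytosolic ribosomal protein genes none was called, 2 were positive and the median was −0.93. It was −0.30 without OVX replicate 1 and −0.62 with offsets for transcript length and GC content. Rplp0, a protein of the ribosome stalk, had 843 and 573 CPM in starvation and 1811 and 1770 CPM in OVX (−1.34 ± 0.31, adjusted p = 0.080), so both OVX libraries were high. Rpl35 had 1383 and 830 CPM in starvation and 9798 and 1646 CPM in OVX, where mainly replicate 1 was high. Of 77 mitochondrial ribosomal protein genes 1, Mrps6, was lower, at 11.1 and 18.7 CPM in starvation, 55.3 and 63.6 CPM in OVX and 64.7 and 38.8 CPM in E4.5, and the median was −0.58, or −0.33 without OVX replicate 1 and −1.01 without starvation replicate 1. The 50 genes of ribosome biogenesis and the 45 translation factors held no call, with medians of −0.16 and −0.13 that were 0.20 and 0.21 with only library totals as scaling.

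**Figure D4:**
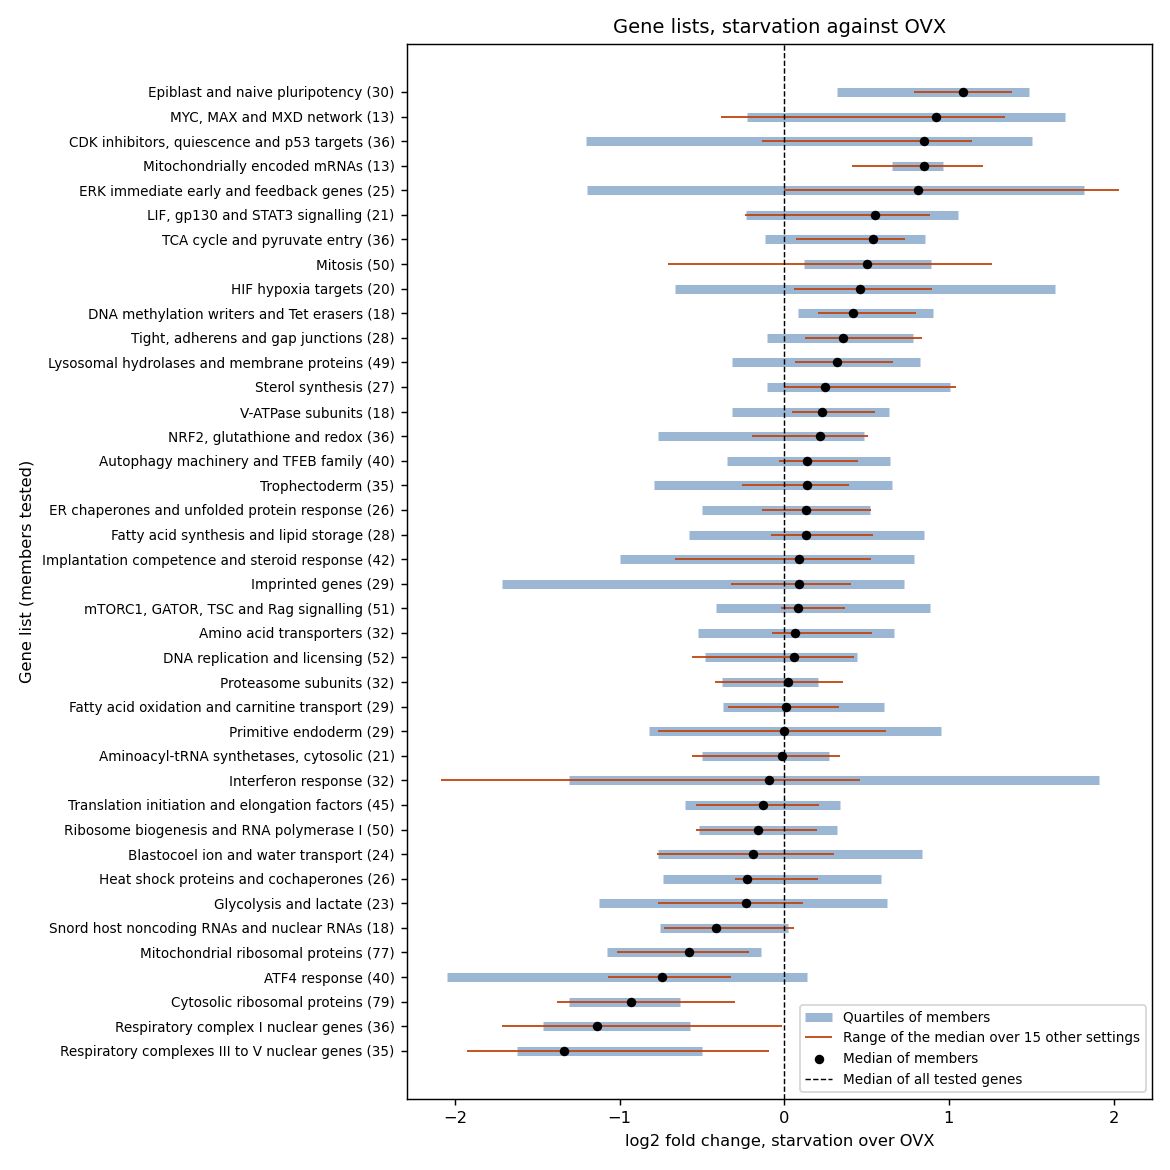
Median log2 fold change, starvation over OVX, of 40 gene lists (black points), the quartiles of their members (blue bars) and the range of the median over 15 other settings (red lines). The dashed line is the median of all genes tested. The epiblast list lies highest at 1.08 and the nuclear respiratory genes lowest at −1.14 and −1.34, with red lines that nearly reach 0 for the respiratory genes.

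Genes that mark the epiblast and the naive pluripotent state had a median log2 fold change of 1.08, with 25 of 30 positive and none called. The median ran from 0.79 to 1.38 over the 15 other settings. Pou5f1, the central pluripotency factor, had 40.8 and 31.3 CPM in starvation, 9.48 and 12.97 CPM in OVX and 111 and 82.5 CPM in E4.5, so that starvation lay between OVX and E4.5 (1.68 ± 0.41, adjusted p = 0.094). Klf5 had 800.5 and 822 CPM in starvation, 271 and 362 CPM in OVX and 446 and 526 CPM in E4.5 (1.36 ± 0.28, adjusted p = 0.067). Dppa2 had 99.6 and 90.6 CPM in starvation, 28.9 and 32.7 CPM in OVX and 198 and 165 CPM in E4.5 (1.63 ± 0.33, adjusted p = 0.066). Klf2 had 35.2 and 26.01 CPM in starvation and 6.24 and 12.7 CPM in OVX (1.69 ± 0.44, adjusted p = 0.11). In these 4 genes the treatments did not overlap. Other members lay the other way: Dppa5a had 10200 and 12780 CPM in starvation and 43930 and 16170 CPM in OVX, and Dnmt3l, a cofactor of DNA methylation, 22.0 and 73.0 CPM in starvation and 86.1 and 196 CPM in OVX. Nanog had 10.6 and 40.2 CPM in starvation and 5.10 and 19.8 CPM in OVX, which overlapped. Of the 30 members, 13 lay higher and 4 lower in starvation without overlap, which was so for 34.2% of all genes tested.

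Primitive endoderm and trophectoderm showed no common direction. The 29 primitive endoderm genes held no call and had a median of 0.00, which ran from −0.76 without starvation replicate 2 to 0.62 without starvation replicate 1. Gata6, which sets the primitive endoderm apart from the epiblast, had 94.2 and 92.9 CPM in starvation, 20.9 and 34.5 CPM in OVX and 131 and 107 CPM in E4.5 (1.75 ± 0.43, adjusted p = 0.096), while the laminin gene Lama1 had 42.0 and 158 CPM in starvation and 227 and 156 CPM in OVX. Of 35 trophectoderm genes Plac1 and Tinagl1 were lower, none was higher, and the median was 0.14, or −0.26 without OVX replicate 1. Cdx2, the factor that sets the trophectoderm fate, had 35.0 and 59.3 CPM in starvation, 11.1 and 17.8 CPM in OVX and 59.0 and 68.1 CPM in E4.5 (1.70 ± 0.41, adjusted p = 0.089). Gata3 had 319 and 568 CPM in starvation and 218 and 328 CPM in OVX, and Krt8 3481 and 1514 CPM in starvation and 1310 and 3494 CPM in OVX, both overlapping. The keratin genes Krt7 and Krt19 had 45.4 and 46.2 CPM and 12.9 and 10.6 CPM in starvation, against 82.2 and 301 CPM and 41.9 and 123 CPM in OVX, with adjusted p of 0.19 and 0.18 in the edgeR test.

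**Figure D5:**
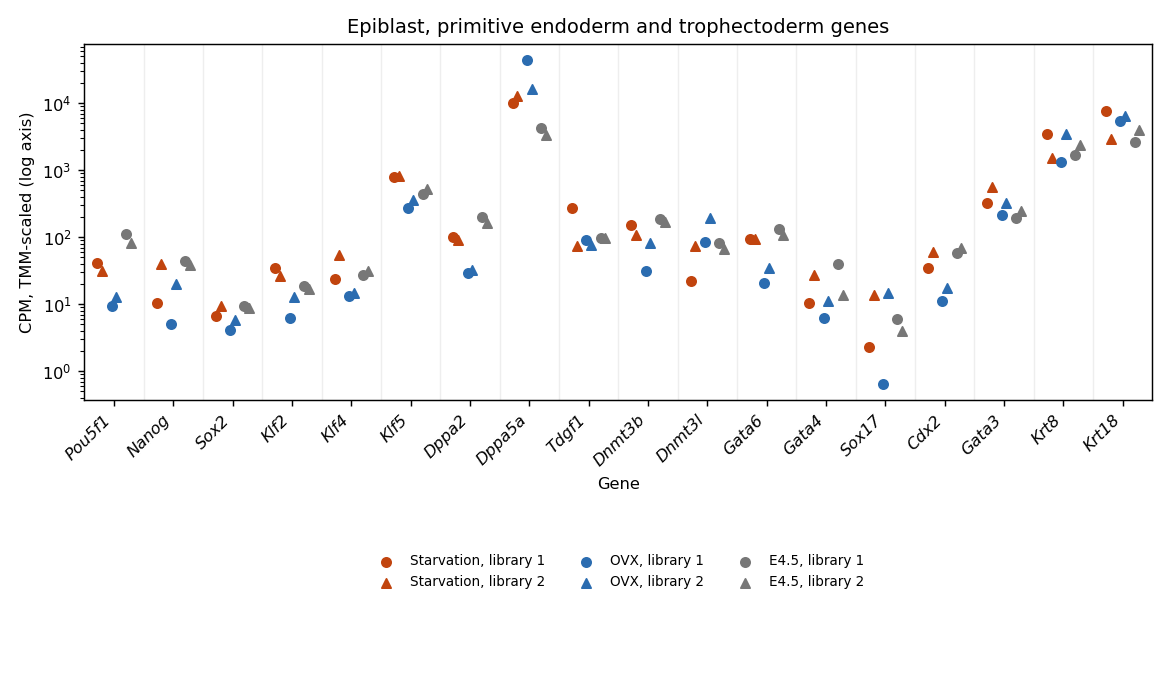
Levels by library (CPM, scaled by trimmed means, log axis) of 18 genes of epiblast, primitive endoderm and trophectoderm. Circles are replicate 1 and triangles replicate 2. None of the 18 was called. For Pou5f1, Sox2, Klf2, Klf4, Klf5, Dppa2, Dnmt3b, Gata6 and Cdx2 both starvation points lie above both OVX points. For Dppa5a and Dnmt3l both starvation points lie below both OVX points. Such a lack of overlap was found in 34.2% of all genes tested. For Pou5f1, Dppa2, Dnmt3b, Gata6 and Cdx2 the E4.5 points are at or above those of starvation.

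Nutrient sensing genes did not part the treatments at this depth of replication. Of 51 genes of mTORC1, the amino acid sensor complex GATOR, the TSC complex and the Rag GTPases none was called, 30 were positive and the median was 0.08, with a range of −0.02 to 0.37 over the other settings. Nprl2 had 42.0 and 16.4 CPM in starvation and 38.0 and 36.5 CPM in OVX, and Tsc2 26.1 and 15.9 CPM in starvation and 23.3 and 14.1 CPM in OVX, both overlapping. Mtor had 21.8 and 22.6 CPM in starvation and 12.1 and 12.6 CPM in OVX (0.85 ± 0.44, adjusted p = 0.38). Fnip1, a partner of folliculin, had 28.9 and 80.6 CPM in starvation and 12.2 and 10.2 CPM in OVX (2.29 ± 0.48, adjusted p = 0.067). Rheb, the GTPase that switches mTORC1 on, had 234 and 245 CPM in starvation, 358 and 302 CPM in OVX and 104 and 103 CPM in E4.5, so both treatments lay above E4.5. Eif4ebp1, a repressor of cap-dependent translation that mTORC1 inactivates, had 281 and 162 CPM in starvation and 551 and 481 CPM in OVX (−1.22 ± 0.35, adjusted p = 0.14). Foxo1 and Foxo3, factors held back by insulin signalling, had 21.2 and 37.9 CPM and 44.3 and 59.0 CPM in starvation, against 5.39 and 9.38 CPM and 12.03 and 24.5 CPM in OVX. Their log2 fold changes were 1.997 ± 0.472 (adjusted p = 0.084) and 1.4998 ± 0.454 (adjusted p = 0.15). Gchfr, the regulator of tetrahydrobiopterin synthesis, was at 298 and 450 CPM in starvation and 642 and 396 CPM in OVX, with 3.75 and 5.36 CPM in E4.5. Its treatments overlapped and both lay far above E4.5.

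Genes of the amino acid response, which the factor ATF4 drives, had a median of −0.74 over 40 members, 14 of them positive and none called, and the median ran from −1.07 to −0.32 over the other settings. Cth, which makes cysteine from cystathionine, had 85.8 and 94.8 CPM in starvation, 8.56 and 16.2 CPM in OVX and 18.5 and 11.8 CPM in E4.5 and missed the threshold narrowly (2.86 ± 0.53, adjusted p = 0.051). Psph, the last enzyme of serine synthesis, had 15.7 and 9.59 CPM in starvation and 35.2 and 75.3 CPM in OVX (−2.13 ± 0.53, adjusted p = 0.10). Asns, asparagine synthetase, had 115 and 233 CPM in starvation and 308 and 294 CPM in OVX (−0.79 ± 0.43, adjusted p = 0.39), and Atf4 itself 23.1 and 97.4 CPM in starvation and 46.5 and 70.6 CPM in OVX. The stress kinase gene Eif2ak3, a sensor of the endoplasmic reticulum, had 29.7 and 164 CPM in starvation and 11.3 and 16.9 CPM in OVX (2.78 ± 0.64, adjusted p = 0.079). The lists of tRNA synthetases, amino acid transporters, heat shock proteins, endoplasmic reticulum chaperones, proteasome subunits and redox genes had no call and medians from −0.23 to 0.22. The p53 target Cdkn1a, an inhibitor of the cell cycle, had 9.84 and 27.6 CPM in starvation and 45 and 183 CPM in OVX (−2.61 ± 0.68, adjusted p = 0.11). Its list of 36 cell cycle inhibitors, quiescence genes and p53 targets lay the other way, with 24 positive, none called and a median of 0.85. The median of that list was −0.14 without starvation replicate 2. DNA replication genes had a median of 0.06 and mitosis genes of 0.50. The mitosis median was −0.70 without starvation replicate 1 and 1.26 without OVX replicate 1, and the replication median −0.56 without starvation replicate 1.

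Lysosomal hydrolases and membrane proteins had a median of 0.32 (0.06 without starvation replicate 1), with 33 of 49 positive, and Ctsz as the single call was lower. Of 40 autophagy genes 1, Optn, was higher and the median was 0.14, and the list of 18 V-ATPase subunits, which leaves out Atp6v0a4, had a median of 0.23 and no call. Atp6ap2, an accessory subunit, had 539 and 441 CPM in starvation and 126 and 186 CPM in OVX (1.65 ± 0.45, adjusted p = 0.12).

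Signalling and implantation genes were compared last, with a few genes of other kinds. The 21 genes of the LIF and STAT3 pathway, through which the uterus supports the waiting blastocyst, held no call and had a median of 0.55, which was −0.24 without starvation replicate 2 and 0.31 without OVX replicate 1. The receptor gene Lifr had 8.37 and 46.4 CPM in starvation and 9.48 and 14.7 CPM in OVX, and its partner Il6st 16.3 and 21.0 CPM in starvation and 7.94 and 9.97 CPM in OVX (1.06 ± 0.54, adjusted p = 0.38). Of 42 genes of implantation and steroid response Itgav was lower, none was higher, and the median was 0.09, or −0.66 without starvation replicate 2. Hbegf, a growth factor of blastocyst attachment, had 19.8 and 10.9 CPM in starvation and 20 and 45.4 CPM in OVX, and the oestrogen receptor gene Esr1 0 and 3.79 CPM in starvation and 0.392 and 0 CPM in OVX. The 25 ERK immediate early and feedback genes held no call, with a median of 0.81 that ran from 0.00 to 2.03 over the other settings. Spry2, a feedback inhibitor of that pathway, had 214 and 175 CPM in starvation, 37.4 and 70.8 CPM in OVX and 23.4 and 30.4 CPM in E4.5 (1.85 ± 0.49, adjusted p = 0.12). The sodium, potassium and chloride cotransporter gene Slc12a2 had 19.5 and 25.6 CPM in starvation and 3.66 and 4.24 CPM in OVX (2.51 ± 0.49, adjusted p = 0.059). The nuclear RNA Malat1 took 19390 and 7644 CPM in starvation, 107700 and 22980 CPM in OVX and 1736 and 2853 CPM in E4.5 (−2.27 ± 0.66, adjusted p = 0.14), with OVX replicate 1 again the highest library.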

How the data were processed

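The deposited table holds estimated counts (whole numbers) and FPKM computed by the authors for 31528 genes on GRCm38 in 13 libraries. Per the submitters' processing notes, cutadapt 1.9, HISAT2 2.0.4 and StringTie 1.3.4d were used, while the annotation and the counting tool are not given in the sources used here. The amplification kit carries no molecular identifiers, so copies of a molecule count separately. Counts were tested in edgeR 4.0.16 (R 4.3.3) with glmQLFit and glmQLFTest, two-sided, fitting the 13 libraries together with 6 group means, 7 residual degrees of freedom, filterByExpr (21808 genes kept) and trimmed-mean scaling. Besides the groups shown, the fit held blastocysts in KSOM medium that lacked protein and carbohydrate or had reduced nutrients. The contrast is starvation minus OVX, and standard errors were derived from the F statistic. A group with no count was set to a floor of 3 counts per library. CPM are of whole genes, not per length.

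Named genes were, by rule, up to 12 called genes in each direction with the largest change among those of a mean log2 CPM of at least 4 (prior count 2) and no overlap, up to 3 called or 2 uncalled members per list, and a panel of 36 genes. The other genes, including the sex-linked ones, were named after their values were seen. The groups, the 48 lists (1408 genes tested) and the panel were chosen with earlier results of these data known. Lists are described by counts and medians, with no test of their own. Setting genes without counts at the floor moved the median of 1 of the 40 lists plotted, that of hypoxia genes, to 0.21. The alternatives were median-of-ratios scaling, library totals, DESeq2 1.42.0, limma 3.58.1 on log2(FPKM + 1), 2 other filters, the 4 libraries alone, a replicate block, counts divided by 4, length and GC offsets, and leaving out each library. The test was also run on counts simulated from its own fitted spread, which cannot show how it fares with library differences like those above. RefSeq promoters (GRCm38.p6) were matched by symbol for 37 of the 49 called genes. Figures were drawn in matplotlib 3.10.9.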

Additional observations from a re-analysis of the deposited data

How the results depend on the processing

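Against 49 calls by the edgeR test as reported, library totals as scaling gave 28, DESeq2 1650, limma on log2(FPKM + 1) 211, no low count filter 1091, a mean CPM of at least 5 gave 272, counts divided by 4 gave 103 and length and GC offsets 25. Median-of-ratios scaling gave 53. The fit of the 4 libraries alone gave 0 by edgeR (1466 genes at an unadjusted p under 0.05). The share of higher calls was 34.7% as reported, 78.6% with library totals, where the median of all genes was 0.26, and 77.7% with limma. Leaving out each library gave 31 to 660 calls, from 31 without OVX replicate 1 (18 shared with the 49) to 660 without OVX replicate 2 (48 shared), and 220 and 210 without starvation replicates 1 and 2. Where a group is left with 1 library, that library is assumed to vary like the other groups. None of the 49 genes turned its direction in any of the 15 settings in which it was tested, and each was called in 4 to 12 of them. As the groups did not overlap in any of the 49, leaving out a library could hardly turn a direction. Of the medians of lists under these settings 630 moved by less than the spread between replicates and 89 by more. With a replicate block, edgeR called 0 genes in the fit of 13 libraries (2592 at an unadjusted p under 0.05) and 0 in that of 4 (1261). Starvation and OVX libraries share only a number: the correlation of their replicate differences was 0.155 over 9111 genes, from 1 pair of groups. With 2 libraries a group, the coefficient of variation of 0.896 limits the size of difference that can be called.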
